A study of Homo sapiens with 48 samples.

Results

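The arrays described here are the 24 of 48 that were made without insulin-like growth factor I (IGF-I), and they set breast cancer cells carrying IRS-1 against cells carrying IRS-2. T47D-YA is a variant of the luminal T47D breast cancer line that lacks insulin receptor substrate (IRS) proteins, and its sublines express human IRS-1 (#10 and #20) or IRS-2 (#1 and #6), kept under hygromycin B. Each subline is a clone, so an isoform is represented by 2 clones, and anything else in which the clones differ cannot be told apart from the isoform. All cells spent 24 h in serum-free medium (SFM), and those of these arrays then stayed in SFM+FN, without IGF-I, until 4 h or until 24 h, with 3 arrays in each of the 8 groups of clone and time. The platform was the Affymetrix HG-U133 Plus 2.0 array. Members were chosen by the labels alone, 12 arrays of IRS-1 clones and 12 of IRS-2 clones.

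The IRS proteins are adaptors without enzymatic activity. After ligand binding, the IGF-I or insulin receptor phosphorylates them on tyrosines, and they then recruit phosphatidylinositol 3-kinase and, through GRB2, the Ras and ERK pathway. The comparison asks which genes differ between cells with either adaptor before any ligand is added, the baseline from which a response to IGF-I is measured.

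A probe set was called when limma gave an adjusted p under 0.05 and at least 1.5-fold in the same direction in each of the 4 pairs of an IRS-1 and an IRS-2 clone. The arrays serve as replicates within each pair. Nothing in the labels says that the 3 arrays of a group came from separate cultures, so these p-values measure the spread between arrays, which may be technical. A second test took the 4 clone means as the replicates. An exact permutation of 2 clones against 2 cannot go below a two-sided p of 0.333, so p-values of the second test rest on limma's variance shared over probe sets. Levels are GC-RMA values on the log2 scale, differences are IRS-1 minus IRS-2 on that scale, and a gene is represented by its brightest probe set.

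The clones showed a luminal epithelial profile. The 14 luminal markers, among them EPCAM, CDH1, KRT8 and GATA3, had medians from 12.23 to 12.49 on the arrays, and their median percentile among all genes was 96.65. Markers of basal, mesenchymal, immune and endothelial cells had median percentiles from 29.4 to 36.9. Of all those markers VIM was the only one called. The array could not check the transferred genes. The only called IRS1 probe set was higher in the clones labelled IRS-2, with clone means of 8.45 and 7.90 against 5.63 and 6.08, and the other IRS1 probe sets differed by -0.17 and -0.35. The IRS2 probe sets differed by 0.41 and 0.02, higher in the clones labelled IRS-1. Whether these probe sets lie in the transferred sequence is not given in the sources used here, and the clones are named below by their labels. Arrays of a group correlated between 0.996 and 0.998.

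Control transcripts added to the samples moved with the isoform. The hybridization controls (9 probe sets), which are added after labelling, lay between 11.91 and 12.93 on IRS-1 arrays and between 11.43 and 11.88 on IRS-2 arrays, a difference of 0.47 against 0.096 and 0.069 between clones of an isoform. The poly-A controls, which are added to the RNA, differed by -0.39, with 7.36 to 9.4 on IRS-1 arrays and 8.25 to 8.7 on IRS-2 arrays. The 18S rRNA probe sets differed by 0.48, with overlapping arrays (7.89 to 9.71 on IRS-1 and 7.91 to 8.53 on IRS-2 arrays), and the array medians by 0.038. One IRS-1 #10 array at 24 h had the highest hybridization controls (12.93) and 1 IRS-1 #20 array at 4 h the highest poly-A controls (9.4). The part of these control differences in the results below was not tested, and list counts relative to the hybridization controls, where 15.5% of all genes were called higher in IRS-2 clones and 0.233% higher in IRS-1 clones, are given beside the counts as deposited.

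In all 4 clone pairs, 1415 probe sets (2.59% of 54613) were higher in IRS-1 clones and 405 (0.742%) were higher in IRS-2 clones. By gene, 182 (0.92% of 19775) were higher in IRS-1 clones and 171 (0.865%) higher in IRS-2 clones, against 1734 (8.77%) and 3495 (17.7%) with no fold threshold and 46 and 3062 relative to the hybridization controls. On 1372 of the 1415 and 387 of the 405 probe sets, the 12 arrays of an isoform did not overlap with the 12 of the other, where 5.7% of all probe sets had all IRS-1 arrays above and 5.07% all below. With clones as replicates, 1685 (3.09%) and 578 (1.06%) were called, 4.14% in all, and 1332 and 337 probe sets passed both tests in the same direction. That second test rests on both IRS-2 clones: without IRS-2 #1 limma called 0 (9213 at an unadjusted p under 0.05) and without #6 it called 3 (9579), against 2759 without IRS-1 #10 and 3737 without #20. After centring each array on its median 71.8% of the called probe sets were higher in IRS-1 clones against 77.7% as deposited, with the 2-fold threshold 85.5%, and at 24 h alone 69.4%. Relative to the hybridization controls, a shift of -0.471 of every difference, the share fell to 5.58% (391 against 6617), so the count in each direction depends on the scale on which an equal level is defined. The poly-A controls differed the other way (-0.39), and counts relative to them were not computed. Without the 2 arrays of outlying controls the counts were 1344 and 433.

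Clones of different isoforms differed more often than clones of the same isoform. Between IRS-1 #10 and IRS-2 #1, 4635 probe sets were called (8.49%), and between #10 and IRS-2 #6 4778 (8.75%). IRS-1 #20 differed from IRS-2 #1 in 4233 (7.75%) and from #6 in 3490 (6.39%). IRS-1 #10 and #20 differed in 1840 (3.37%) and IRS-2 #1 and #6 in 583 (1.07%). Over the 48849 probe sets with a mean of at least 5, the isoform took 52.6% of the sum of squares, clones within an isoform 21.8%, time 4.15%, clone by time 7.09% and arrays within groups 14.4%. These shares are a description over 2 clones of each isoform.

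**Figure D1:**
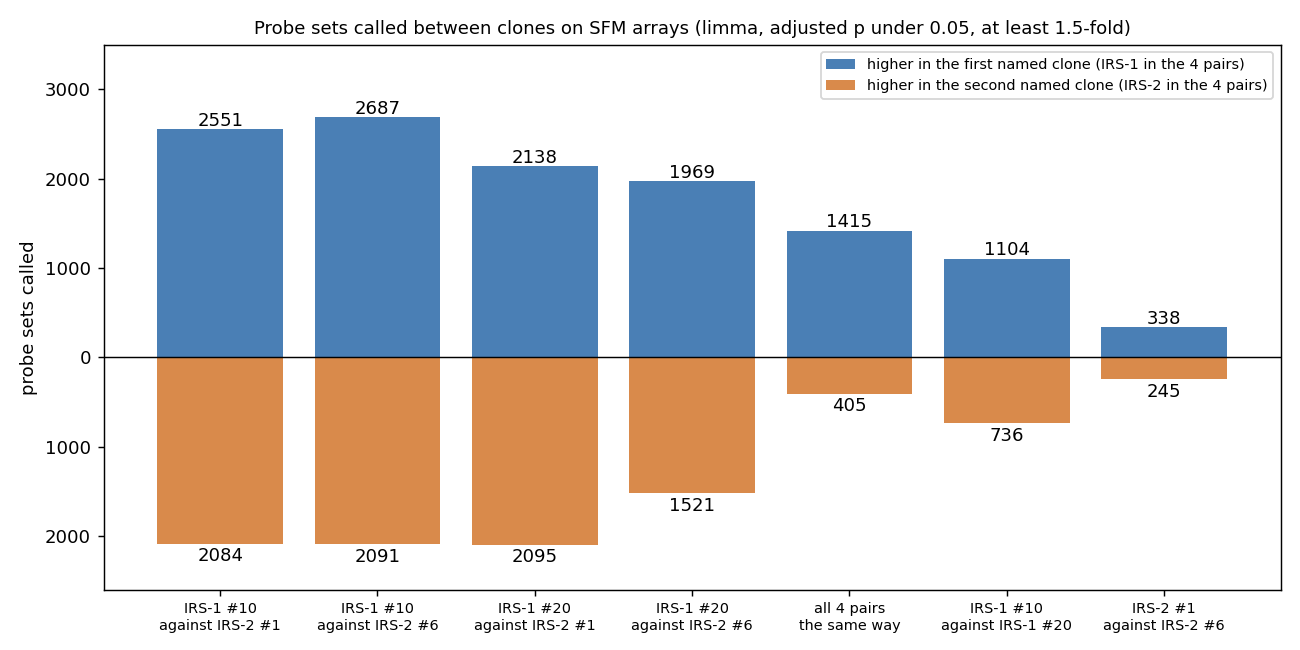
Number of probe sets called by limma between pairs of clones on the SFM arrays (adjusted p under 0.05, at least 1.5-fold), with those higher in the first named clone drawn upward and those higher in the second drawn downward. The 4 pairs across isoforms hold 3490 to 4778 calls, the bar of all 4 pairs 1415 and 405, and the pairs within an isoform 1840 and 583.

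The widest gaps in favour of IRS-1 clones were found in interferon-stimulated genes. IFI44L, XAF1 and IFI44 had the largest distances between the nearest IRS-1 and IRS-2 clone means of all genes called higher in IRS-1 clones. IFI44L encodes an interferon-induced protein, IFI44 is its neighbour and relative, and XAF1 is an interferon-inducible factor that antagonizes the apoptosis inhibitor XIAP. Interferons drive such genes through the interferon-stimulated response element (ISRE) in their promoters. The 250 bases before the start of each gene are shown since these genes lead the list, from RefSeq (GRCh38.p14), with matches to the ISRE core GAAANNGAAA, on either strand, in capitals. IFI44L lies on the plus strand (chr1:78620198-78620447), as do IFI44 (chr1:78649539-78649788) and XAF1 (chr17:6755796-6756045).
IFI44L: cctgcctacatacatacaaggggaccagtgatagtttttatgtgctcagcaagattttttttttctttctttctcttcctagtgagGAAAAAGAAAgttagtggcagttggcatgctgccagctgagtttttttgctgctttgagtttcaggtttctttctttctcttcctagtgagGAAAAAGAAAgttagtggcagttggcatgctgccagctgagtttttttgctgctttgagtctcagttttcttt
IFI44: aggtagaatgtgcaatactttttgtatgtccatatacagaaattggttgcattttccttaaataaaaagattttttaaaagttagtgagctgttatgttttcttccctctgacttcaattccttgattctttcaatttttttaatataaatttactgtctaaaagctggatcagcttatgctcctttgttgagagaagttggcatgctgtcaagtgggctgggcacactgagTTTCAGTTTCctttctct
XAF1: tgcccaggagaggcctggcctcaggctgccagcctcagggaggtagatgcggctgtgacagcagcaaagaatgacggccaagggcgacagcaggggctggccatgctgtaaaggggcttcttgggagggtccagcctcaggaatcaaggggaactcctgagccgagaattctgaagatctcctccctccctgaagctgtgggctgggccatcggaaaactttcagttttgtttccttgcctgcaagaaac
The IFI44L stretch holds the core at 2 places, IFI44 at 1 in the reverse orientation and XAF1 at 0. In windows of 300 bases, from 250 before to 50 after the start, 3.57% of all 35116 promoters held the core. Of the called interferon-stimulated genes with a RefSeq promoter window, 13 of 22 held it (59.1%), and of those not called 8 of 11 (72.7%). Of all 41 measured genes of this list 38 had higher means in IRS-1 clones. Those not called are therefore no contrast group, and the shares cannot say whether the core goes with the difference. A match is a string of letters and not a bound site.

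IFI44L was 11.93 ± 0.13 (SD, n = 6 arrays) in IRS-1 #10 and 11.06 ± 0.7 in #20, against 6.09 ± 0.37 in IRS-2 #1 and 7.85 ± 0.92 in #6. The lowest IRS-1 array stood at 10.37 and the highest IRS-2 array at 8.77, so the groups did not overlap. The difference was 4.52 (standard error over clones 0.66), or 23-fold, with an adjusted p of 0.0302 from limma with clones as replicates. XAF1 ranged from 10.19 to 11.41 (median 10.63) on IRS-1 arrays and from 6.51 to 8.95 (median 7.3) on IRS-2 arrays, a difference of 3.27 (adjusted p = 0.0231 with clones as replicates). IFI44 ranged from 11.68 to 12.44 against 6.04 to 10.21. Its difference of 4.11 was called in all 4 pairs but not with clones as replicates (adjusted p = 0.0896), where IRS-2 #1 (6.43) and #6 (9.63) stood far apart. The neighbours CMPK2, a mitochondrial nucleotide kinase gene, and RSAD2, which encodes the antiviral enzyme viperin, differed by 2.93 and 2.47 (adjusted p = 0.082 and 0.0488 with clones as replicates).

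Of the 41 measured interferon-stimulated genes, 25 (61%) were called higher in IRS-1 clones and 0 in IRS-2 clones, beside 0.92% and 0.865% of all genes. The median difference of the list was 1.38, beside -0.036 over all genes, and 38 of the 41 means were higher in IRS-1 clones. On 16 of them the 12 IRS-1 arrays lay above all IRS-2 arrays, where 2.71% of all genes did so. The called genes include sensors and effectors of the antiviral state: the RNA sensor gene IFIH1 (1.29), the 2'-5' oligoadenylate synthetase genes OAS1 (1.55), OAS2 (2.22) and OAS3 (1.38), IFIT1 (2.00), IFIT2 (1.66) and IFIT3 (1.99), which bind foreign RNA, the ubiquitin-like modifier gene ISG15 (2.11) and the GTPase gene MX1 (1.63). Among the 16 not called, RIGI (0.75), IRF7 (0.93) and IRF9 (0.94) had higher means in IRS-1 clones, and IRF1 (0.06), ISG20 (-0.06), MX2 (-0.15) and GBP2 (-0.19) lay close to 0.

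The interferon-stimulated genes also separated the IRS-2 clones. The median level of the list was 11.18 in IRS-1 #10 and 11.03 in #20, against 8.97 in IRS-2 #1 and 9.96 in #6. IRS-2 #6 was called above #1 in 31 of the 41 genes (0.683% of all genes) and below it in 0, and IRS-1 #10 above #20 in 5 (2.18%). MX1 illustrates the order, with 13.54 and 13.46 in the IRS-1 clones, 12.66 in IRS-2 #6 and 11.07 in #1. With clones as replicates, 5 of the 41 passed (0.971% of all genes), namely IFI44L, XAF1, RSAD2, SAMD9 and SAMD9L. The count called in all pairs was 14 at 24 h alone, 27 at 4 h alone and 12 at 2-fold. It was 10 relative to the hybridization controls and 35 without IRS-2 #6. Over all probe sets the counts toward IRS-1 were 947, 1722, 459, 391 and 1726 in that order, against 1415. In bulk RNA, fewer cells that express a gene and less RNA per cell cannot be told apart.

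**Figure D2:**
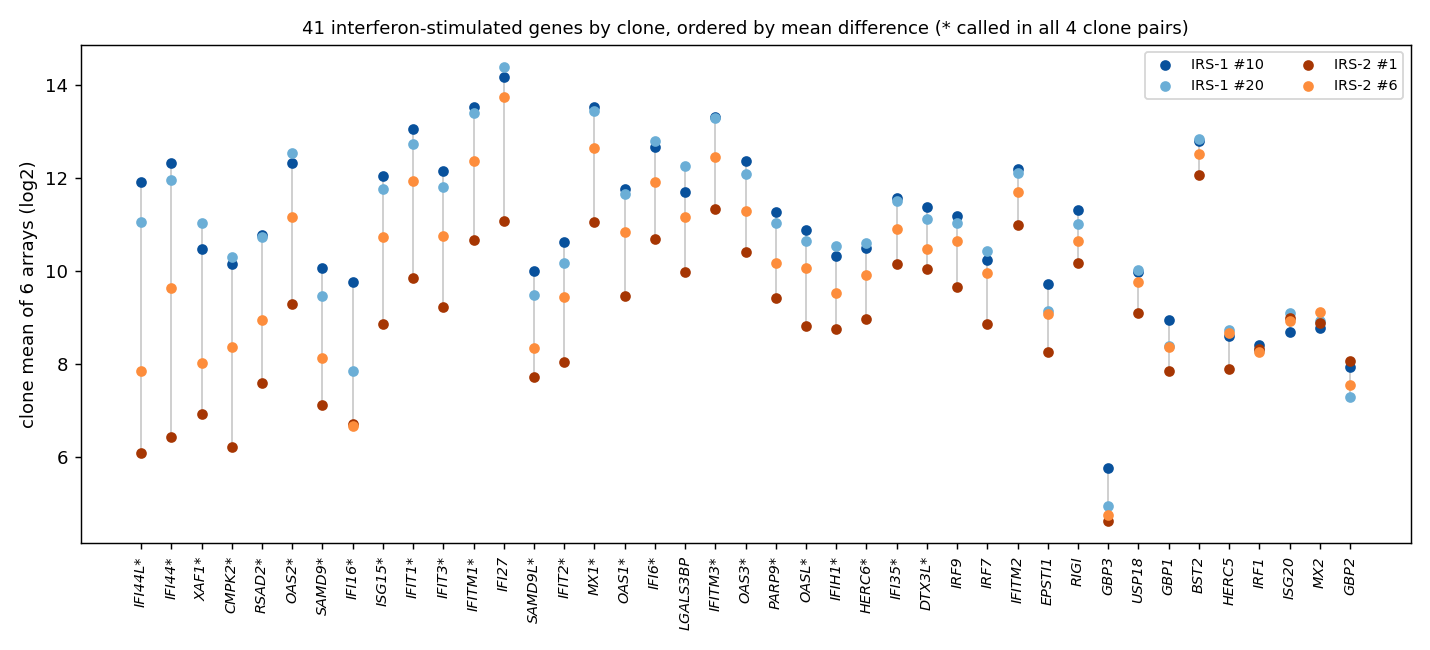
Clone means (6 arrays each, log2) of the 41 measured interferon-stimulated genes, ordered by the mean difference between isoforms, with an asterisk at the 25 genes called in all 4 clone pairs. IRS-2 #1 is the lowest clone for most genes, IRS-2 #6 lies between it and the IRS-1 clones, and GBP2 and MX2 at the right end show no such order.

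Some genes of antigen presentation were also higher in IRS-1 clones. CD74, HLA-DPA1 and HLA-DPB1 were called, 3 of 24 measured members (12.5%, beside 0.92% of all genes), and 0 were higher in IRS-2 clones. Relative to the hybridization controls the count was 2, beside 0.233% of all genes. CD74, the invariant chain of class II molecules, was 10.35 ± 0.15 and 9.95 ± 0.18 (SD, n = 6) in the IRS-1 clones and 8.3 ± 0.25 and 8.05 ± 0.34 in the IRS-2 clones, with no overlap between arrays (adjusted p = 0.0111 with clones as replicates). This was 1 of the 3 CD74 probe sets, and the other ones, not called, differed by 0.06 and 0.53. HLA-DPA1 and HLA-DPB1, the chains of the class II molecule DP, differed by 1.63 (2 of 3 probe sets called) and 0.84 (1 of 2). HLA-DRA (1.32) and the immunoproteasome subunit gene PSMB9 (0.73) were not called. Unlike in the interferon list, IRS-2 #6 was called above #1 in 0 of the 24 genes and below it in 2. Over all genes these shares were 0.683% and 0.875%. IRS-1 #10 was called above #20 in 5 of the 24 (2.18% of all genes).

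Outside the interferon list, PTPRO, a receptor tyrosine phosphatase gene, was 13.81 ± 0.05 and 13.46 ± 0.11 in IRS-1 #10 and #20, and 11.21 ± 0.43 and 10.84 ± 0.37 in IRS-2 #1 and #6 (SD, n = 6). All IRS-1 arrays lay above all IRS-2 arrays, and the difference was 2.61 (6.1-fold, adjusted p = 0.00829 with clones as replicates). This came from 1 of its 3 probe sets, and the other two, both dim, differed by 0.01 and -0.07. STEAP1, which encodes a membrane protein of the STEAP family, was 10.54 and 10.41 in IRS-1 clones and 8.25 and 6.83 in IRS-2 clones, a difference of 2.93. C6orf141 (2.37), C19orf33 (2.08), the sulfotransferase gene CHST1 (1.89), in 1 of its 2 probe sets, and ANKRD36B (1.86) were higher in IRS-1 clones with an adjusted p of at most 0.0087 with clones as replicates. CYP4Z1, a mammary cytochrome P450 gene, differed by 1.56, VEGFA, the angiogenic growth factor, by 0.78 (1 of 4 probe sets), the cytokine gene IL1A by 0.78 (1 of 2 probe sets) and the early response gene IER3 by 0.87. CYP4Z1 was the member called among 39 xenobiotic and glutathione enzymes (2.56%), VEGFA among 33 genes of glycolysis and hypoxia (3.03%), where CA12 was called the other way, and IL1A among 38 cytokine and chemokine genes (2.63%), where CCL20 was called the other way. Relative to the hybridization controls 1 xenobiotic gene and 0 of the other 2 lists were called higher in IRS-1 clones, against 6, 8 and 8 higher in IRS-2 clones. Without the 2 arrays of outlying controls 0 genes of glycolysis and hypoxia were called higher in IRS-1 clones. Of all genes 0.92% were called higher in IRS-1 clones as deposited, and 15.5% higher in IRS-2 clones relative to the hybridization controls.

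MALAT1, an abundant nuclear RNA of the splicing speckles, was higher in IRS-1 clones in every measurement of it. Its brightest probe set read 14.13 ± 0.18 and 13.92 ± 0.18 in the IRS-1 clones and 11.44 ± 0.26 and 11.75 ± 0.37 in the IRS-2 clones (SD, n = 6). The IRS-1 arrays ranged from 13.67 to 14.46 and the IRS-2 arrays from 11.05 to 12.23. All 12 of its probe sets were called, with differences from 1.25 to 2.63. The noncoding RNAs FTX (2.07) and LOC100190986 (2.13) also showed no overlap between arrays. Of 2658 noncoding genes of the lncRNA class, 24 (0.903%) were higher in IRS-1 clones and 8 (0.301%) in IRS-2 clones, beside 141 (0.853%) and 163 (0.987%) of 16521 protein-coding genes.

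Probe sets without a listed gene made up much of the excess in the IRS-1 direction. Of the 1415 higher in IRS-1 clones, 670 (47.3%) were not listed in the platform annotation, against 42 of 405 (10.4%) in the other direction and 21.5% of all probe sets. Among probe sets with 1 symbol, 1.64% were higher in IRS-1 clones and 0.849% in IRS-2 clones, and among those not listed 5.72% and 0.358%. Restricted to probe sets with 1 symbol, 674 and 349 were called, 65.9% of them higher in IRS-1 clones. What the unlisted probe sets measure is not given in the sources used here.

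**Figure D3:**
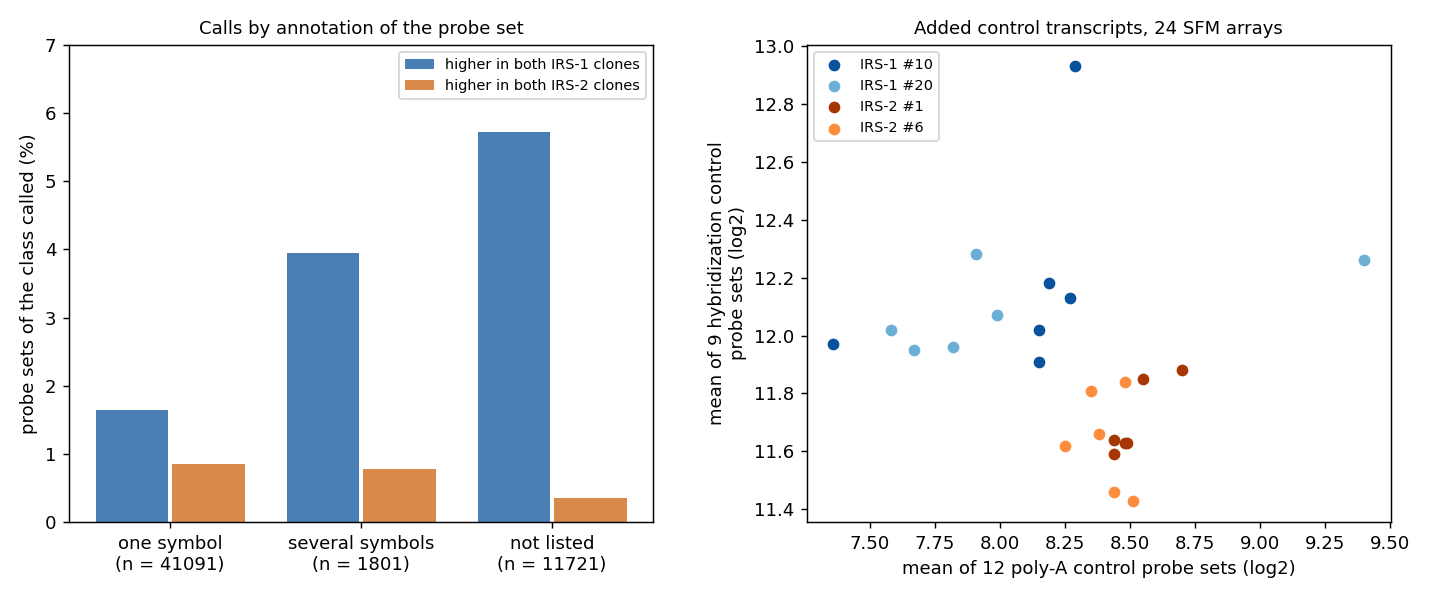
Left, the percentage of probe sets called in all 4 clone pairs by annotation class, with calls higher in IRS-1 clones reaching 5.72% where no gene is listed. Right, the mean level (log2) of the hybridization controls against that of the poly-A controls on each of the 24 arrays, where the IRS-1 arrays start at 11.91 in the hybridization controls and the IRS-2 arrays end at 11.88.

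The largest difference in either direction was in TNC, which encodes the matrix glycoprotein tenascin-C. TNC was 5.15 ± 0.24 and 5.31 ± 0.25 in IRS-1 #10 and #20, and 9.98 ± 0.16 and 10.57 ± 0.24 in IRS-2 #1 and #6 (SD, n = 6). The IRS-1 arrays ranged from 4.96 to 5.79 and the IRS-2 arrays from 9.76 to 10.85. The difference of -5.04 corresponds to 33-fold and passed with clones as replicates (adjusted p = 0.00568). Its other two probe sets were dim in all clones and differed by -0.15 and -0.09. Signal over background is unknown for these values, so folds from a dim group depend on the background model of GC-RMA.

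Several further genes had wide gaps toward IRS-2. ANKRD30A, a breast differentiation antigen, ranged from 5.31 to 5.99 (median 5.67) on IRS-1 arrays and from 8.08 to 9.21 (median 8.78) on IRS-2 arrays, a difference of -3.07 (8.4-fold, adjusted p = 0.00568 with clones as replicates). Its neighbour LINC00993, a noncoding RNA, differed by -2.81 with the same adjusted p. PDZK1, an estrogen-inducible scaffold gene, differed by -3.42, with 5.12 and 6.4 in the IRS-1 clones, 8.14 in IRS-2 #1 and 10.23 in #6. Its arrays overlapped, with IRS-1 arrays up to 7.32 and IRS-2 arrays from 7.07. SCGB2A2, which encodes mammaglobin, differed by -2.86. PDZK1 and SCGB2A2 did not pass limma with clones as replicates (adjusted p = 0.0769 and 0.0581). NPY1R, the Y1 receptor of neuropeptide Y, differed by -1.53 and AFF3, a nuclear factor gene of which 1 of 6 probe sets was called, by -1.75.

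Of 34 measured hormone receptor and luminal genes, PDZK1, CA12 (-0.85), TFF3 (-1.41) and MYB (-0.93) were called higher in IRS-2 clones (11.8%, beside 0.865% of all genes). None was called higher in IRS-1 clones, and the list's median was 0.014. The count toward IRS-2 clones was 7 relative to the hybridization controls, beside 15.5% of all genes, and 1 after quantile normalization. Over all probe sets 387 were called toward IRS-2 after quantile normalization, against 405. ESR1, the estrogen receptor gene, stood at 10.6 and 10.21 in IRS-1 clones and 10.7 and 10.6 in IRS-2 clones and was not called. The brightest PGR probe set, of the progesterone receptor, differed by 0.32 and was not called, and the other one was called higher in IRS-2 clones (-1.85), with 8.49 and 7.84 against 9.47 and 10.56.

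Single genes of lipid synthesis, cell contact and signalling were also higher in IRS-2 clones. ELOVL2, which elongates polyunsaturated fatty acids, was 6.37 and 6.44 in IRS-1 clones and 9.99 and 9.15 in IRS-2 clones (-3.17, adjusted p = 0.0116 with clones as replicates). With MVD (-0.91) of the mevalonate pathway, 2 of 31 genes of cholesterol and fatty acid synthesis (6.45%) were called, beside 0.865% of all genes. Means were higher in IRS-2 clones for 26 of the 31 and in IRS-1 clones for 5 (57.8% and 42.2% of all genes). FASN, the fatty acid synthase gene, was not called, with all IRS-1 arrays above all IRS-2 arrays (0.74). The 31 include MUSK (0.17, not called), which matched the listed FADS1 through a synonym and is not a gene of this synthesis. The list's count toward IRS-2 clones was 12 relative to the hybridization controls, beside 15.5% of all genes. On the values as deposited it was 8 without IRS-1 #20, where 1321 of all probe sets were called toward IRS-2 against 405. MPPED2, a phosphodiesterase gene, differed by -2.91 and was called in both of its probe sets, PWWP3B by -2.72, GJA1, a gap junction connexin gene, by 4-fold, AOC1, the diamine oxidase, by -1.80 and the cochaperone gene BAG2 by -1.74 in 1 of its 3 probe sets.

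DUSP6, the phosphatase that inactivates ERK in a feedback loop, was higher in IRS-2 clones with all 3 of its probe sets. It was 8.38 ± 0.33 and 8.83 ± 0.41 in the IRS-1 clones and 10.58 ± 0.28 and 10.55 ± 0.74 in the IRS-2 clones (SD, n = 6), a difference of -1.96 (adjusted p = 0.0106 with clones as replicates). The highest IRS-1 array stood at 9.25 and the lowest IRS-2 array at 9.75. IL17RD, another inhibitor of ERK signalling, differed by -1.97 in 1 of 2 probe sets. Among 33 ERK and AP-1 response genes these were not matched by a common direction. DUSP6 alone was called higher in IRS-2 clones and IER3 alone in IRS-1 clones (3.03% each, beside 0.865% and 0.92% of all genes), with a median of -0.094. Relative to the hybridization controls 7 were called higher in IRS-2 clones, beside 15.5% of all genes, and 0 in IRS-1 clones. DUSP4 and ETV5 (-0.89 each) also had higher means in IRS-2 clones but were not called. Of the 33 means 21 were higher in IRS-2 clones and 12 in IRS-1 clones, beside 57.8% and 42.2% of all genes. Toward IRS-2, 3 were called at 24 h alone and 4 without IRS-1 #20. Over all probe sets those counts were 417 and 1321, against 405.

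**Figure D4:**
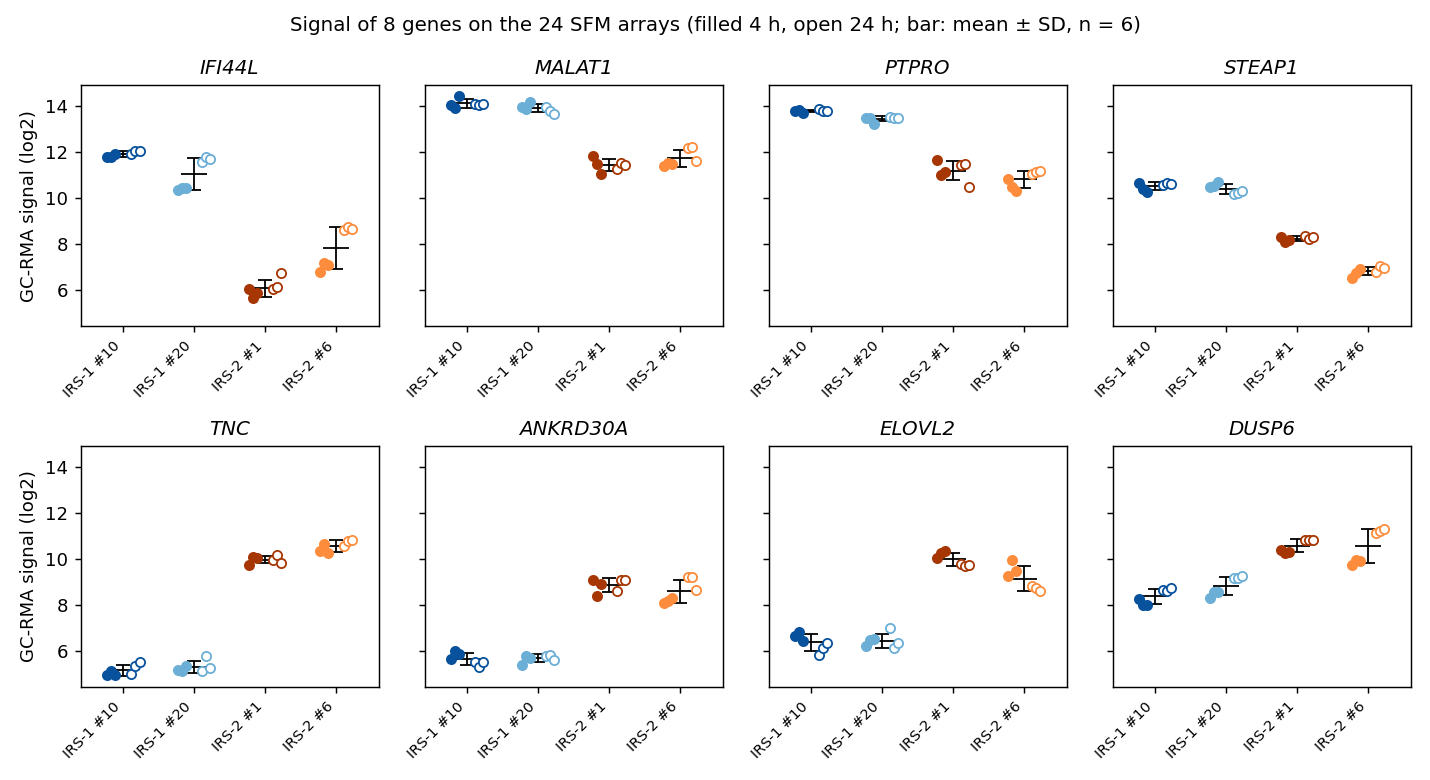
GC-RMA signal (log2) of 8 genes on each of the 24 SFM arrays by clone, with filled points at 4 h, open points at 24 h, and bars at the mean ± SD of 6 arrays. IFI44L, MALAT1, PTPRO and STEAP1 are higher on all IRS-1 arrays and TNC, ANKRD30A, ELOVL2 and DUSP6 on all IRS-2 arrays, with IFI44L also apart between IRS-2 #1 and #6.

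Within the IGF and insulin pathway, of 29 receptors, adaptors and phosphatidylinositol 3-kinase subunits, GRB10, an adaptor that restrains both receptors, was called by its brightest probe set, higher in IRS-2 clones (-0.84, 3.45%, beside 0.865% of all genes). Of its 4 probe sets 1 was called, 1 differed the other way (0.29), and their mean (-0.45) was not called. The called IRS1 probe set described above is not the brightest of that gene. Of the 29, 7 were called higher in IRS-2 clones relative to the hybridization controls, beside 15.5% of all genes. IGF1R was 9.82 and 10.6 in IRS-1 clones and 10.37 and 10.61 in IRS-2 clones and INSR differed by 0.21, neither of them called. Of 16 IGF ligands and binding proteins IGFBP5 was called, higher in IRS-2 clones (-1.35, 6.25%), in 1 of its 6 probe sets. The count was 6 relative to the hybridization controls, beside the same 15.5% of all genes. On the values as deposited it was 4 without IRS-2 #1 and 3 without IRS-1 #20. Over all probe sets the calls toward IRS-2 were then 751 and 1321, against 405 with all clones. CCND1, which encodes cyclin D1, had a mean difference of -0.46 and was not called.

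Matrix and mesenchymal genes were called toward IRS-2 or not at all. Of 39 integrins, matrix and focal adhesion genes, TNC, the heparan sulfate proteoglycan gene SDC2 (-1.19), ITGA6 (-1.50) and ITGA2 (-0.69) were higher in IRS-2 clones (10.3%, beside 0.865% of all genes), and the median was 0.003. Relative to the hybridization controls 7 were called, beside 15.5% of all genes. The same shares over all genes apply to the other lists of this paragraph. VIM, the intermediate filament vimentin, was 8.65 and 8.55 against 9.49 and 9.46 (-0.88) and CD44, a hyaluronan receptor, differed by -1.12 (4 of 13 probe sets), 2 of 28 basal and mesenchymal genes (7.14%), or 7 relative to the hybridization controls. TGFB1 (-0.78) was called among 37 genes of the TGF-beta, BMP and activin pathway (2.7%), in 1 of its 2 probe sets. The other probe set differed by 0.12, and their mean (-0.33) was not called. The list's count was 8 relative to the hybridization controls and, on the values as deposited, 7 without IRS-1 #20. Without that clone 1321 of all probe sets were called toward IRS-2, against 405. TGFB2 (-0.10) was not called. The WNT receptor gene FZD7 differed by -0.78, 1 of 41 (2.44%), or 4 relative to the hybridization controls, and the chemokine gene CCL20 by -1.53, while CCL2 (-1.02) was not called, with 7.9 in IRS-1 #20 and 9.43 to 9.73 in the other clones.

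Genes of mitosis and DNA replication differed little but in 1 direction. Of 52 measured members 51 had higher means in IRS-2 clones, where 57.8% of all genes did, with a median of -0.379. None passed 1.5-fold in all pairs. Without IRS-1 #20 13 did, where the calls toward IRS-2 over all probe sets rose from 405 to 1321. Without any other clone 0 or 1 did. With no fold threshold 37 of the 52 were called higher in IRS-2 clones by limma, beside 17.7% of all genes, and 18 showed no overlap between the 12 and 12 arrays, beside 7.2%. Relative to the hybridization controls 23 were called at 1.5-fold, beside 15.5% of all genes. The replication factor gene GINS2 had the widest gap between nearest clone means (-0.49). The mitotic kinase gene AURKA differed by -0.48 and the phosphatase gene CDC25C by -0.56. With clones as replicates 1 of the 52 passed, GINS2 (-0.69), beside 1.25% of all genes.

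Lists without a called member in either direction were those of G1 cyclins, kinases and inhibitors (20 genes, median -0.209), matrix proteases and inhibitors (35), EGF family ligands and receptors (14), amino acid stress and transport (32, median -0.246), cancer-testis antigens (24), apoptosis and p53 targets (30) and clustered histones (12). With no fold threshold each of them had members that passed limma's threshold, so these counts state only that no member differed by 1.5-fold in all 4 pairs. Relative to the hybridization controls 4, 3, 0, 13, 4, 6 and 2 of them, in that order, were called higher in IRS-2 clones, beside 15.5% of all genes. Without IRS-1 #20, on the values as deposited, 3 protease and inhibitor genes and 5 of amino acid stress and transport were called higher in IRS-2 clones. The EGF family and apoptosis lists then each had 1 call in each direction, and clustered histones had 2 toward IRS-1 clones. Over all probe sets 2169 were then called toward IRS-1 and 1321 toward IRS-2, against 1415 and 405 with all clones.

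Some neighbouring genes were called in the same direction, among them IFIT1, IFIT2 and IFIT3, OAS1, OAS2 and OAS3, SAMD9 and SAMD9L, STEAP1 and STEAP2, and ANKRD30A and LINC00993. The longest run of this kind in nuclear DNA, chosen after the values were seen, holds ZC3H12D, PPIL4, GINM1 and KATNA1, all 4 higher in IRS-2 clones. From ZC3H12D to RMND1, further along the same chromosome, 21 genes were measured. Of these, 9 were called higher in IRS-2 clones (0.865% of all genes) and 0 in IRS-1 clones. Relative to the hybridization controls 14 were called higher in IRS-2 clones (15.5% of all genes). The stretch was bounded by called genes, so these counts are a description. The median difference over the stretch was -0.72, 19 means were higher in IRS-2 clones (57.8% of all genes), and for 12 genes the IRS-1 arrays all lay below the IRS-2 arrays (7.2%). KATNA1, which encodes the catalytic subunit of the microtubule-severing enzyme katanin, was 9.22 and 9.04 in IRS-1 clones and 10.24 and 10.26 in IRS-2 clones. PCMT1, a protein repair methyltransferase gene, was 11.88 and 12.01 against 12.88 and 12.81, and PPP1R14C, a phosphatase inhibitor gene, 8.41 and 8.58 against 9.93 and 9.94. LATS1 (-0.84), NUP43 (-0.73) and LRP11 (-0.60) did not overlap between arrays but missed 1.5-fold in some pair, and RAET1E, IYD, PLEKHG1 and MTHFD1L lay between -0.20 and -0.01. ULBP1 (-0.31), ULBP2 (-0.43) and ULBP3 (-0.34) were not called. IYD (4.16 to 4.6) and PLEKHG1 (4.59 to 4.88) were dim in all clones, where a difference could be missed, while ULBP2 (9.02 to 10.08) was not dim. DNA copy number was not measured on these arrays.

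**Figure D5:**
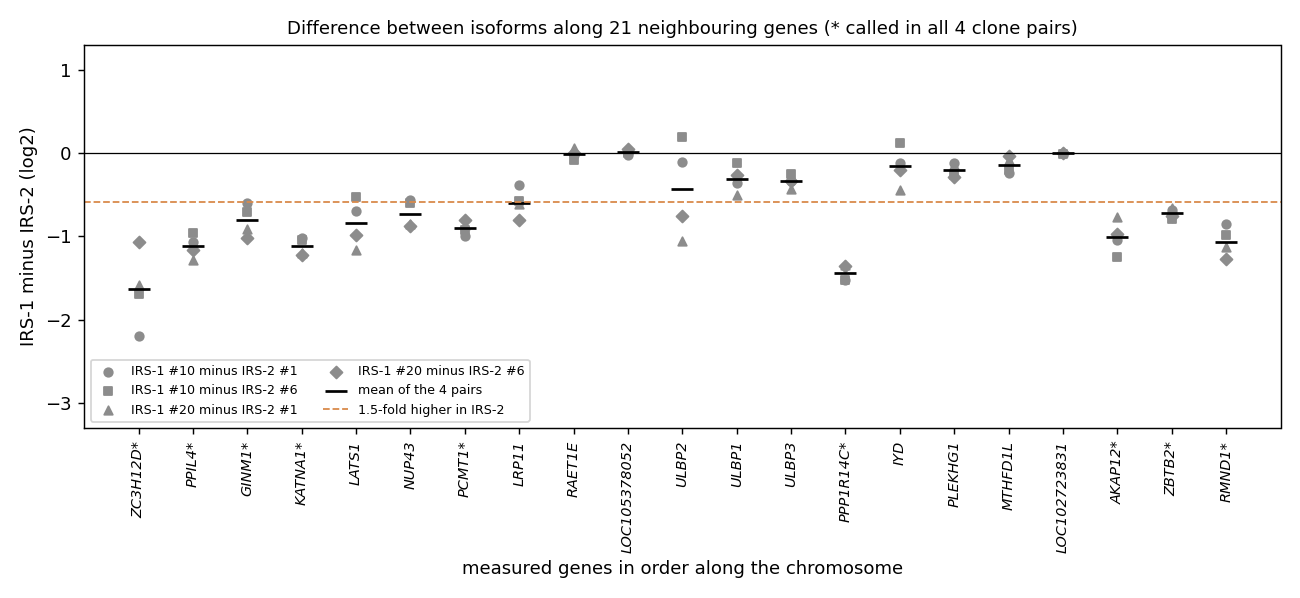
Difference between isoforms (log2, IRS-1 minus IRS-2) for the 21 measured genes from ZC3H12D to RMND1 in their order along the chromosome, with grey symbols for the 4 clone pairs, a black bar for their mean and an asterisk at the 9 called genes. The called genes lie toward both ends of the stretch and at PPP1R14C, and genes that were not called, some of them dim in all clones, lie between them. LATS1 and NUP43, not called, lie between the called KATNA1 and PCMT1.

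Genes of the mitochondrial genome were higher in IRS-1 clones. Of 7 measured, a group chosen after its values were seen, 6 were called: the respiratory chain genes COX3 (1.31), ND6 (1.27), ND2 (1.18), ND4 and COX2 and the ATP synthase gene ATP6 (0.91). The share over all genes was 0.92%, and relative to the hybridization controls ND2 alone was called. ND4, COX2 and COX1 reached 15.02 to 15.11 on IRS-1 arrays, close to the highest value of all (15.19), and whether these probe sets were saturated is not known, so no size is read from them. ND2 was 14.55 ± 0.036 and 14.52 ± 0.046 against 13.38 ± 0.38 and 13.34 ± 0.16 (SD, n = 6). The 18S rRNA probe sets, read beside them, differed the same way on average (0.48) but overlapped between arrays, and their part in the difference was not tested.

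The differences were also present on the 24 arrays of the same clones with IGF-I. All 1415 and 405 probe sets had the same sign there, and 1030 (72.8%) and 308 (76%) were called again in all 4 pairs, where 1.97% and 0.677% of all probe sets were called. None was called in the opposite direction. Among interferon-stimulated genes 25 of 41 were called higher in IRS-1 clones on those arrays (0.738% of all genes), and TNC differed by -5.13, PTPRO by 2.61 and MALAT1 by 2.09. These arrays come from the same clones, so they repeat the measurement and not the clones.

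Between 4 h and 24 h the difference between isoforms changed for 171 probe sets (0.313%), of which 160 (0.293%) moved toward IRS-2 at 24 h and 11 (0.0201%) toward IRS-1. Of the 160, 123 (76.9%) were among those called higher in IRS-1 clones and 103 (64.4%) were not listed in the annotation. S100A8, which encodes a calcium-binding protein of inflamed epithelia, went from 0.33 at 4 h to -0.91 at 24 h, and complement factor gene CFB from 1.01 to -0.15. PDZK1 narrowed from -3.90 to -2.95, and IL17RD widened from -1.63 to -2.31.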

How the data were processed

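Total RNA on 48 arrays (Affymetrix HG-U133 Plus 2.0) was summarized by the authors in GeneData Refiner (GC-RMA, given as GCRMA with no version in the submitters' processing notes). The deposited log2 values cover 54675 probe sets, of which 62 platform controls were left out of the tests. Different RNA kits were used, and which array used which is not given in the sources used here. Raw intensities were not used, so signal over background is unknown, and the number of arrays limits precision.

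Groups were taken from the labels. With limma 3.58.1 (R 4.3.3) a mean was fitted to each of the 8 SFM groups (16 residual degrees of freedom, trended variances), and each IRS-1 clone was compared with each IRS-2 clone averaged over times. The second fit used the 4 clone means (2 residual and 2.44 prior degrees of freedom). Adjusted p-values are Benjamini-Hochberg over 54613 probe sets. The 24 IGF-I arrays were fitted separately. The scripts were tested on simulated data.

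Platform annotation gave 1 symbol to 41091 probe sets, several to 1801 and none to 11721, and 41037 matched RefSeq genes by Entrez identifier. Of 747 list members 683 were measured. Among them FADS1, of the list of cholesterol and fatty acid synthesis, was matched through a synonym to MUSK. Each gene was represented by its brightest probe set on the SFM arrays. Named were the 15 genes per direction with the widest gap between nearest clone means among those called, up to 4 called members per list, the 5 largest changes between times, and the targeted and study genes. The members, the 22 lists and the rules were chosen with earlier results of these data known. Alternatives were a dim filter (log2 of 5 on 3 arrays), quantile normalization, median centring, untrended variances, 2-fold and no fold, the replicate letter as a block, the methods' t-test, clone as a random block, mean of probe sets, single times, and leaving out letters or clones. Restriction to 1 symbol, the shift by hybridization controls and the omission of 2 arrays were chosen after seeing the data. Promoters came from RefSeq GRCh38.p14.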

Additional observations from a re-analysis of the deposited data

Results flagged for a closer look

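For 11 of the named genes the difference between isoforms itself changed between 4 h and 24 h (limma, contrast of the differences, error from arrays within groups, at least 1.5-fold). The change, 24 h minus 4 h on the log2 scale, was -1.24 for S100A8, -1.16 for CFB, -0.95 for LCN2 and -0.92 for S100A9, 4 genes of epithelial inflammation that were not called in all 4 clone pairs over both times. It was -0.89 for CCL20, whose difference went from -1.09 at 4 h to -1.98 at 24 h. ANKRD30A (-0.63) and IL17RD (-0.68) also moved further toward IRS-2, while the difference of MPPED2 (0.85) and PDZK1 (0.96) narrowed. FTX (-0.79) and LOC100190986 (-0.71), both higher in IRS-1 clones, narrowed as well. The labels give 2 clones of each isoform, so these changes rest on the same 4 clones at both times.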

How the results depend on the processing

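Of the counts of probe sets called in all 4 pairs, 1415 higher in IRS-1 clones and 405 higher in IRS-2 clones, a dim filter, quantile normalization, median centring, untrended variances, either time alone and the methods' t-test (1413 and 404, or 1409 and 404 after Benjamini-Hochberg) moved neither by over 1.5 times. At 2-fold the counts were 459 and 78, and with no fold threshold 7403 and 7205. With clones as replicates the total of 2263 became 734 and 4990, for IRS-1 #10 against #20 the 1840 became 473 and 16993, for IRS-2 #1 against #6 the 583 became 137 and 10176, for the change between times the 171 became 8 and 1651, and for calls shared with the IGF-I arrays the 1338 became 340 and 11222. Leaving out 1 clone at a time gave 1612 to 2169 probe sets higher in IRS-1 clones and 751 to 1321 higher in IRS-2 clones, since fewer pairs had to pass. With clones as replicates it gave 0 without IRS-2 #1, 3 without IRS-2 #6, 2759 without IRS-1 #10 and 3737 without IRS-1 #20, where the lone clone is assumed to vary like the others. Clone as a random block over arrays (correlation 0.22) called 3459, of which 2106 were higher in IRS-1 clones. Among probe sets with 1 symbol 674 and 349 were called, and relative to the hybridization controls 391 and 6617, both chosen after seeing the data. Leaving out replicate letters gave 1207 to 1487 and 379 to 459, and the change between times 131 to 207. Same-lettered arrays of different groups correlated in their deviations from -0.332 to 0.282 (median -0.017), with 22 of 84 pairs above 0.1. A pairing by letter common to all groups was not seen, and the labels do not say what the letters mean. With the replicate block the counts were 1415, 405, 1840, 583, 170 and 1338. Among the 69 named genes, of which 50 were called, no called difference changed sign under any alternative. Of the 50 calls, 15 were lost at 2-fold, 15 when the probe sets of each gene were averaged, 5 at 4 h alone, 2 at 24 h alone, 4 after quantile normalization, 1 after median centring and 4 relative to the hybridization controls. The causes were not tested.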
